A study of Mus musculus with 45 samples.

Results

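Zscan4c, Zscan4d, Zscan4f, Tcstv1, Tcstv3, Usp17la, Usp17lc and Zfp352 are genes known for a burst of expression in the mouse two-cell embryo. They were taken by symbol from the deposited expression table, as 8 of its 26214 genes, and all 8 were found. Expression was measured by RNA-seq in fully grown oocytes (FGOs) and in single late two-cell embryos, harvested 31 to 32 h after fertilization. Control oocytes came from H3f3b K36M-flox/+ females without Cre, and K36M oocytes from H3f3b K36M-flox/+; Gdf9-Cre females, in which the oocyte-specific Gdf9 promoter drives Cre and the H3f3b locus then makes an HA-tagged histone H3.3 with methionine in place of lysine 36. All females were of mixed C57BL/6 and 129 background, FGOs were taken at 3 to 4 weeks of age, and the embryos were made from oocytes of both genotypes by in vitro fertilization with JF-1 sperm. The embryos are grouped by the genotype of the mother, and the labels do not say which of them inherited the K36M allele.

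There were 3 control and 3 K36M FGO libraries, each a pool of 5 FGOs, and 7 control and 8 K36M oocyte-derived libraries, each of 1 embryo. Control embryo 4, whose label marks it as excluded, was set aside. FGO libraries were amplified for 10 + 10 cycles and embryo libraries for 10 + 13 cycles, so stage cannot be told apart from pool size, PCR cycles and the paternal strain. Nothing in the labels says that libraries of a group came from separate animals, so the p-values measure the spread between these libraries only. Values are TPM, a measure of transcript abundance that is scaled to gene length and to the same sum in every library and keeps no depth.

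At the two-cell stage the mouse embryo starts to transcribe its own genome and degrades the RNA stored by the oocyte. A set of genes and endogenous retroviral elements is switched on for this short window, and many of them sit in families of tandem copies. Zscan4 genes encode SCAN domain and zinc finger proteins known for telomere maintenance in embryonic stem cells, where they mark rare cells that resemble two-cell embryos. Tcstv1 and Tcstv3 encode small two-cell proteins that have also been linked to telomere length. Usp17l genes encode ubiquitin-specific proteases of the DUB family, which remove ubiquitin from proteins. Zfp352 encodes a zinc finger protein of the early embryo. The transcription factor DUX is a known activator of several of these families.

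The genes lie on 3 chromosomes, in genome build GRCm38.p6 (the assembly of mm10), and no other annotated gene overlaps any of them. Zscan4c (chr7:11005745-11010547, plus strand), Zscan4d (chr7:11161643-11166148, minus strand) and Zscan4f (chr7:11397915-11402318, plus strand) are neighbours on chromosome 7. Usp17lc (chr7:103416696-103419174, plus strand) and Usp17la (chr7:104857016-104862667, plus strand) lie further along the same chromosome. Tcstv1 (chr13:119893387-119894785, minus strand) and Tcstv3 (chr13:120316862-120318261, plus strand) are on chromosome 13, and Zfp352 (chr4:90218820-90225687, plus strand) is on chromosome 4.

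RefSeq promoter sequences were found for 6 of the 8 genes, and not for Tcstv1 and Tcstv3. The 250 bases before the annotated start are shown for the 3 Zscan4 genes because they share a pair of motifs, for Usp17lc as a protease gene on the same chromosome, and for Zfp352 because one short motif recurs in it. All are from GRCm38.p6 and read 5′ to 3′ on the gene's strand. Capitals mark the motifs, which were chosen after the sequences were seen: the DUX core TGATTCAA (reverse TTGAATCA), the TATA box TATAAA (reverse TTTATA), and the OTX and OBOX core GGATTA (reverse TAATCC), searched on both strands. The windows are chr7:11005495-11005744 (plus) for Zscan4c, chr7:11166149-11166398 (minus) for Zscan4d, chr7:11397665-11397914 (plus) for Zscan4f, chr7:103416446-103416695 (plus) for Usp17lc and chr4:90218570-90218819 (plus) for Zfp352.
Zscan4c: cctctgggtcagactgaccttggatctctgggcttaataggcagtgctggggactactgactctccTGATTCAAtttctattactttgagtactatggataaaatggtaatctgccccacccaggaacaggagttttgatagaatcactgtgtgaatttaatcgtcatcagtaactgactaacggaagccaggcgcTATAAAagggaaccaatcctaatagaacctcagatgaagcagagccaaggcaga
Zscan4d: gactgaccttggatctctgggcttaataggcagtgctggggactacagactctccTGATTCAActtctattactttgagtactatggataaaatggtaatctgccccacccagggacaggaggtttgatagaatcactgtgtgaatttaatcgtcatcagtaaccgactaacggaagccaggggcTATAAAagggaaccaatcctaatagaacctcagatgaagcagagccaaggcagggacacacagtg
Zscan4f: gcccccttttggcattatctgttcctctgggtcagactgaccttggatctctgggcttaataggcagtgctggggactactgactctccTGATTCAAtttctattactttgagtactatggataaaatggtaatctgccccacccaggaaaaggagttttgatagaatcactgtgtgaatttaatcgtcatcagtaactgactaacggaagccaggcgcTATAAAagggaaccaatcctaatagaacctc
Usp17lc: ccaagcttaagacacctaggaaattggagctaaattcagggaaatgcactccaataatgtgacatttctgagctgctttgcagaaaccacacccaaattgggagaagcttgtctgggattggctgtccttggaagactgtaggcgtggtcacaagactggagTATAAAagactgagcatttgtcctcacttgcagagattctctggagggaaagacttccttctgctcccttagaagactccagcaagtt
Zfp352: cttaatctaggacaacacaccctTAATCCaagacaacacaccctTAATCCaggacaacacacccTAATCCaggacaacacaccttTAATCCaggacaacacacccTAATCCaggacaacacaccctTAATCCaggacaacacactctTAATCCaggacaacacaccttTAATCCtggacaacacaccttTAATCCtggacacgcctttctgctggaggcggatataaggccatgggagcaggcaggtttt

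The DUX core stood 184 bases before the start of Zscan4c, 195 before Zscan4d and 161 before Zscan4f. Of 32851 promoter windows of this length, 177 (0.539%) held it. In each Zscan4 window a TATAAA followed, at 54, 65 and 31 bases before the start. TATAAA was present in 12.4% of all windows, and also in that of Usp17lc, at 88 bases before the start. The Zfp352 window held 9 copies of TAATCC, from 227 to 61 bases before the start, and no other of the 32851 windows held as many, while 6.25% held at least 1 copy of the motif. None of these letters was found in the window of Usp17la. A match is a description of the sequence and does not show that a factor binds there.

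The near-identity of the copies bears on every value below, because a read that fits several copies may be dropped or shared between them, and how the counting treated such reads is not given in the sources used here. The libraries were read at 53 bases per end. Of all 53-base stretches of exon, 92.0% were found at a single place in the genome for Zfp352, 77.9% for Usp17la, 73.6% for Tcstv1 and 70.7% for Tcstv3. The share was 52.0% for Zscan4d and 40.0% for Usp17lc, and it was 16.2% for Zscan4c and 3.27% for Zscan4f. Of the Zscan4f stretches, 82.4% also occurred in Zscan4c, and the coding sequences of these 2 genes were 99.6% identical. Zscan4-ps2, a copy that is not listed in the table, held 85.6% of the Zscan4f and 62.0% of the Zscan4c stretches. Coding identity was 97.7% between Zscan4c and Zscan4d, 93.6% between Tcstv1 and Tcstv3, and 90.8% between Usp17la and Usp17lc. Usp17lc shared 58.3% of its stretches with Usp17ld, a copy that is listed in the table but is not among the 8 genes. Values of Zscan4c, Zscan4f and Usp17lc are therefore uncertain as values of single genes.

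**Figure D1:**
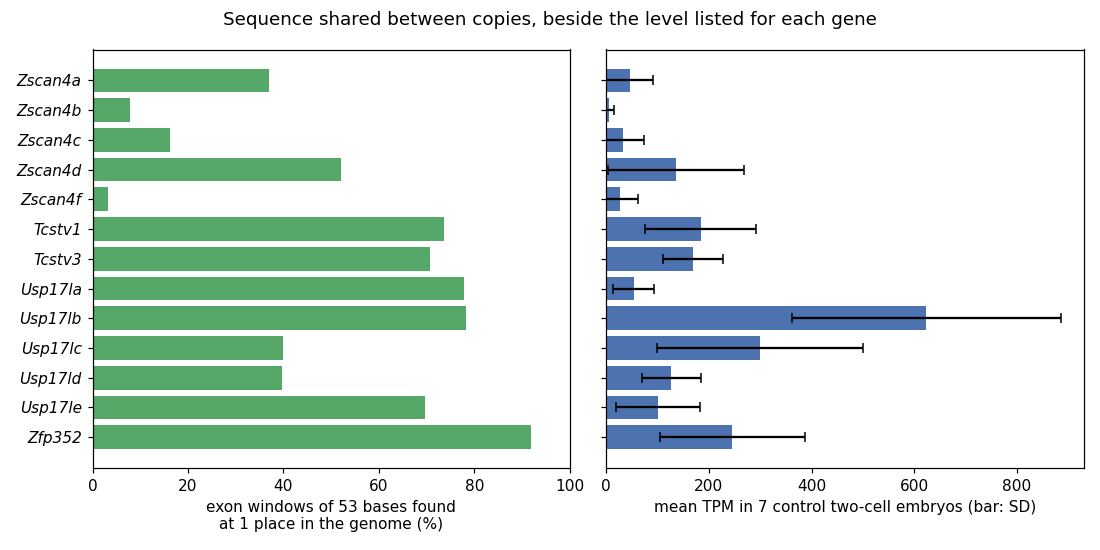
For each gene of the 3 families in the table and for Zfp352, the left bars give the percent of 53-base exon stretches found at a single place in the genome and the right bars the mean TPM in 7 control two-cell embryos with the SD. Zscan4f has 3.27% and Zscan4b 7.83% of such stretches, and Zfp352 has 92.0%.

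In FGOs most of the 8 genes were at or close to 0. Zscan4f was listed at 0 in all 6 FGO libraries. Zfp352 was listed at 0 in 5 of them and at 0.61 TPM in control FGO 3, and Usp17la was listed at 0.16 TPM in control FGO 2 and at 0 in the others. These are the genes with the lowest FGO values of the set. Zscan4c had 0, 1.66 and 1.504 TPM in control FGOs 1 to 3, and 0.25, 0.69 and 0.72 in K36M FGOs 1 to 3. Usp17lc had 2.55, 1.88 and 0 TPM in control FGOs and 0, 0 and 1.20 in K36M FGOs. A value listed at 0 can be a failed estimate, since Gapdh, a glycolytic enzyme gene used by nearly every cell, was also at 0 in 2 of the 15 embryos.

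The Tcstv genes and Zscan4d stood above the rest in FGOs. Tcstv1 had 50.5, 35.7 and 35.9 TPM in control FGOs and 34.3, 23.1 and 43.8 in K36M FGOs. Tcstv3 had 15.2, 15.8 and 9.13 TPM in control FGOs and 7.89, 8.83 and 10.2 in K36M FGOs. Zscan4d had 5.63, 6.42 and 3.24 TPM in control FGOs and 3.93, 1.86 and 3.65 in K36M FGOs. In control FGOs the order was Tcstv1 (40.7 ± 8.46, SD, n = 3), Tcstv3 (13.4 ± 3.68), Zscan4d (5.10 ± 1.65), Usp17lc (1.48 ± 1.32) and Zscan4c (1.06 ± 0.918). Tcstv1 was above Tcstv3 and Tcstv3 above Zscan4d in every FGO library, and the ranges of Usp17lc and Zscan4c overlapped.

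The comparison of K36M with control FGOs asks whether the genes differ in the oocyte that carries the mutant histone. Control and K36M libraries overlapped for all 8 genes, against 7.46% of 13775 genes tested with K36M above control and 8.17% with K36M below without overlap. Only Zscan4d, Tcstv1 and Tcstv3 reached a mean of 1 TPM and were tested, with limma on log2(TPM + 1). The difference, K36M minus control, was -0.55 (SE 0.35) for Zscan4d, -0.29 (SE 0.24) for Tcstv1 and -0.50 (SE 0.25) for Tcstv3, and limma's adjusted p was 0.596, 0.671 and 0.526. Without single libraries it was -0.80 to -0.31 for Zscan4d, -0.50 to -0.05 for Tcstv1 (the latter without K36M library 2) and -0.73 to -0.37 for Tcstv3. None of the 3 passed the threshold of 0.05, and none had an unadjusted p under 0.05. Over all genes tested, 0.00726% (1 gene) were called lower and 0% higher, and the median difference of all genes was 0.01. Without K36M library 1 the count over all genes was 300, with none of the 8 genes among them. H3f3b, the gene that carries the allele, had 265 to 308 TPM in control and 377 to 418 in K36M FGOs without overlap, a difference of 0.44 (SE 0.09, limma adjusted p = 0.281).

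In two-cell embryos the group means of all 8 genes were above those in FGOs, while single embryos varied and some were at or near 0 for a gene. Among the control embryos, Usp17lc had the highest mean at 300 ± 200 TPM (SD, n = 7), followed by Zfp352 at 245 ± 141, Tcstv1 at 184 ± 109, Tcstv3 at 168 ± 58.1 and Zscan4d at 136 ± 132. Usp17la at 53.8 ± 39.8, Zscan4c at 33.3 ± 40.5 and Zscan4f at 26.5 ± 35.2 were lower. The ranges of all neighbours in this order overlapped. In the 8 K36M oocyte-derived embryos the order was Usp17lc (333 ± 273), Zfp352 (182 ± 125), Tcstv1 (170 ± 178), Zscan4d (101 ± 60.6), Tcstv3 (95.2 ± 100), Usp17la (83.9 ± 75.7), Zscan4c (30.3 ± 20.96) and Zscan4f (28.2 ± 26.6), again with overlap between all neighbours.

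**Figure D2:**
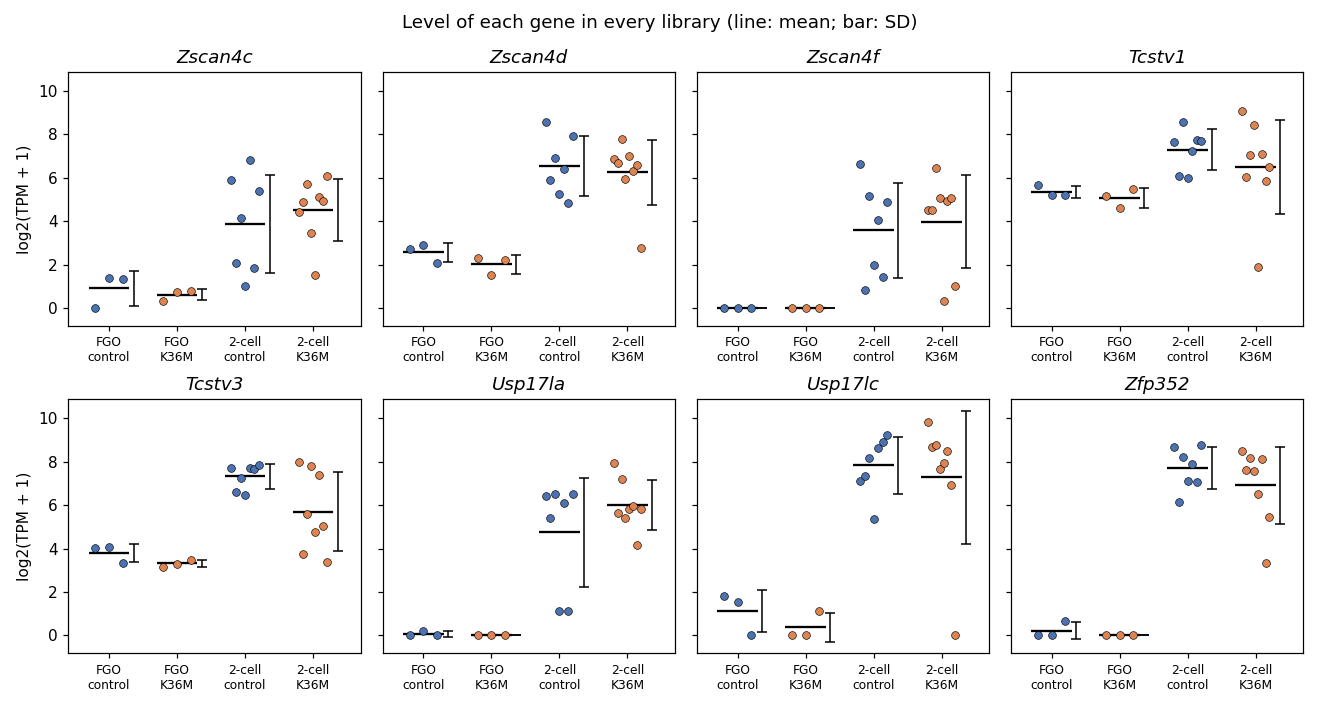
Each point is 1 library, the line is the group mean and the bar the SD, on a scale of log2(TPM + 1), for control (blue) and K36M (orange) FGO libraries (n = 3 and 3) and two-cell embryos (n = 7 and 8). Zscan4f is at 0 in all 6 FGO libraries, and Tcstv1 has the highest FGO levels, 23.1 to 50.5 TPM.

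The Zscan4 genes rose between FGO and two-cell embryo in both genotypes. Zscan4c had a lowest, median and highest value of 1.04, 16.6 and 111 TPM in control embryos and 1.89, 28.9 and 66.3 in K36M embryos. Control embryo 5 was below control FGOs 2 and 3 for this gene, so the control stages overlapped, while all 8 K36M embryos were above the K36M FGOs. The two-cell minus FGO difference in log2(TPM + 1) was 2.97 (SE 1.08, limma adjusted p = 0.0447) in control and 3.90 (SE 1.06, limma adjusted p = 0.00719) in K36M. The control call for Zscan4c was lost in 14 of 30 alternative settings, with limma's adjusted p from 0.00261 to 0.192, among them leaving out any 1 of the 6 FGO libraries, control embryos 1, 3, 6 or 8, or K36M embryo 7.

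Zscan4d, whose exons can be told apart better than those of the other Zscan4 genes in this set, had 27.9, 83.1 and 385 TPM (lowest, median, highest) in control and 5.86, 99.6 and 218 in K36M embryos. Every embryo was above every FGO library of its genotype. The difference was 3.97 (SE 0.82, limma adjusted p = 0.000805) in control and 4.24 (SE 0.80, limma adjusted p = 0.000304) in K36M. Zscan4f had 0.79, 15.8 and 99.9 TPM in control and 0.26, 25.7 and 85.8 in K36M embryos, against FGO libraries all listed at 0, so no fold is given. Limma's adjusted p for Zscan4f was 0.0312 in control and 0.0135 in K36M, and the call was lost in 8 and 3 of 30 alternative settings. In control these included leaving out any 1 control FGO library or control embryos 1, 3 or 8 (limma's adjusted p up to 0.0951 over the settings), and in K36M any 1 K36M FGO library (up to 0.0522).

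Tcstv1, already present in FGOs, had the smallest difference between the stages of the 8 genes. Tcstv1 had 62.2, 199 and 383 TPM in control embryos, all above the control FGOs, and 2.73, 111 and 531 in K36M embryos. K36M embryo 5, at 2.73 TPM, lay below all 3 K36M FGO libraries, and the other 7 lay above them. The Tcstv1 difference was 1.93 (SE 0.92, limma adjusted p = 0.126) in control and 1.42 (SE 0.90, limma adjusted p = 0.258) in K36M, past the threshold in neither. With array weights Tcstv1 was called in control (1.74) and in K36M (1.72), and with the replicate block in control only (2.58). Without K36M embryo 5 limma's adjusted p was 0.0115 in K36M, where the difference was 2.07, and 0.0200 in control, since the fit has 1 estimate of the spread. Tcstv3 had 86.2, 200 and 229 TPM in control embryos, again without overlap with the FGOs, and 9.42, 39.3 and 249 in K36M embryos, where K36M embryo 8 fell within the FGO range. Tcstv3 rose by 3.51 (SE 0.78, limma adjusted p = 0.00157) in control and by 2.39 (SE 0.76, limma adjusted p = 0.0198) in K36M. The K36M call for Tcstv3 was lost in 4 of 30 alternative settings, without any 1 K36M FGO library or with control embryo 4 added (limma's adjusted p up to 0.0888).

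The Usp17l proteases and Zfp352 went from values near 0 in FGOs to at least a mean of 53.8 TPM in embryos. Usp17la had 1.17, 68.2 and 91.5 TPM in control embryos, where embryos 5 and 7 had 1.19 and 1.17 TPM and the other 5 had at least 41.6. In K36M embryos Usp17la had 16.9, 55.9 and 247 TPM, with no embryo near 0. The rise of Usp17la was 4.67 (SE 1.07, limma adjusted p = 0.00204) in control, and limma's adjusted p was 0.00012 in K36M, where no fold is given because the FGO libraries are listed at 0. Usp17lc had 40.6, 287 and 590 TPM in control and 0, 301 and 901 in K36M embryos. K36M embryo 8 was listed at 0 for Usp17lc, while the other K36M embryos had at least 120 TPM. The rise of Usp17lc was 6.71 (SE 1.30, limma adjusted p = 0.000424) in control and 6.90 (SE 1.27, limma adjusted p = 0.000226) in K36M.

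Zfp352, the gene of the set whose reads are easiest to place, had 70.4, 238 and 438 TPM in control and 8.98, 193 and 355 in K36M embryos, each embryo above every FGO library. The Zfp352 rise was 7.47 (SE 0.82, limma adjusted p = 2.43e-07) in control, and the adjusted p was 5.00e-07 in K36M, against FGO libraries all listed at 0.

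In all, 7 of the 8 genes were called higher in control two-cell embryos than in control FGOs, where 13.4% of the 17358 genes tested were called higher and 13.2% lower. In K36M it was again 7 of 8, against 10.8% higher and 18.6% lower. Without overlap between the stages, the embryos were above the FGOs for 7 of 8 genes in control, against 14.5% of genes with the embryos above and 18.2% with the FGOs above. In K36M this held for 5 of 8 genes, against 9.41% and 16.9%. The median difference over the 8 genes was 3.78 in control and 4.11 in K36M, and that over all genes tested was 0.00 and -0.18. Both medians of the 8 genes depend on the pseudocount, since 1 gene in control and 3 in K36M were listed at 0 in every FGO library. The genes had been picked as known two-cell genes, so this direction was no independent finding.

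The other copies in the table, Zscan4a, Zscan4b, Usp17lb, Usp17ld and Usp17le, were also read. In both genotypes 4 of these 5 were called higher in the embryos, all but Zscan4b. Usp17lb had a higher mean TPM in each embryo group than any of the 8 genes, though not in every embryo, with 305, 566 and 937 TPM (lowest, median, highest) in control and 322, 674 and 1589 in K36M embryos, against at most 1.33 in FGOs. Summed over the 5 Usp17l genes, the level was 2.93 ± 0.424 TPM in control FGOs and 1205 ± 498 in control embryos, and 1.37 ± 1.12 and 1472 ± 805 in K36M. The sum over the 5 Zscan4 genes, which depends less on how reads were divided among the listed copies, was 6.20 ± 1.78 TPM in control FGOs and 247 ± 226 in control embryos, and 3.77 ± 1.08 and 222 ± 121 in K36M. Reads shared with unlisted copies can still move this sum. Tcstv1 and Tcstv3 together had 54.1 ± 10.6 and 352 ± 145 TPM in control and 42.7 ± 11.1 and 265 ± 271 in K36M.

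Other two-cell genes and known regulators were read from fixed lists. Of 24 further two-cell genes, 16 were tested and 13 were called higher in embryos in each genotype, with 1 lower. Of all genes, 13.4% were called higher and 13.2% lower in control, and 10.8% and 18.6% in K36M. This list too was of known two-cell genes, so its direction was no independent finding. Ubtfl1, a transcription factor gene of the preimplantation embryo, was listed at 0 in all FGO libraries and at 133 to 328 TPM in control embryos, and Tdpoz4 was listed at 0 and at 51.8 to 418 TPM. Sp110, a nuclear body gene, had a mean of 686 TPM in control FGOs and 1008 ± 374 in control embryos (limma adjusted p = 0.266). Of 10 symbols listed for known activators of two-cell genes, 9 were tested. Of these, 3 were called higher and 2 lower in control, and 3 higher and 1 lower in K36M. They stand beside the shares of all genes given above (13.4% and 13.2% in control, 10.8% and 18.6% in K36M). Dppa4, a chromatin protein that promotes the two-cell program, rose by 3.67 (SE 0.40, limma adjusted p = 2.05e-07) in control, from a mean of 16.5 to 237 TPM. Dppa2, its partner, had means of 128 and 147 TPM (limma adjusted p = 0.988). Dux, named here because its core motif is printed above and chosen after its values were seen, had at most 0.483 TPM in FGOs, 8.62 to 43.7 in control embryos (limma adjusted p = 0.00725) and 0 to 25.9 in K36M embryos (limma adjusted p = 0.165). Dux was not called different between the genotypes, either in the embryos (K36M minus control -2.09, SE 0.87, limma adjusted p = 0.592) or in the interaction (-1.88, SE 1.40, limma adjusted p = 1.00). Of 15 known repressors of the two-cell program, 3 were called higher and 4 lower in each genotype. Nothing particular to either list is read from these counts. Among them Rif1, a chromatin-binding replication timing factor, rose by 1.05 (SE 0.18, limma adjusted p = 0.000101) in control embryos, and Chaf1a, a subunit of the chromatin assembly factor CAF-1, fell by 1.06 (SE 0.35, limma adjusted p = 0.0271).

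The stage labels were checked against markers. All 8 maternal oocyte markers were called lower in embryos of both genotypes, and their summed level was 15447 to 17982 TPM in FGOs and 1093 to 4451 in embryos. The 12 cumulus and granulosa markers summed to 47.2 to 66.1 TPM in FGOs and to 4.85 to 138 in embryos, with 1 to 11 of them listed at 0 in an embryo. The 5 blood markers summed to at most 0.38 TPM in FGOs and 59.5 in embryos. The part of these other cells in the results was not tested. In libraries of this kind a lower level per embryo and a smaller share of all RNA cannot be told apart.

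The comparison of K36M oocyte-derived with control embryos asks whether the mutant histone of the oocyte alters the two-cell burst. All 8 genes overlapped between the genotypes, and without overlap were 0.023% of the 17362 genes tested with K36M above and 0.0922% with K36M below. Limma called 0 of the 8 genes, with 1 at an unadjusted p under 0.05, and it called 0% of all genes in either direction. The difference in log2(TPM + 1), K36M minus control, was below 0 for 5 genes and above 0 for 3, with a median of -0.42, where the median over all genes tested was -0.26 and became -0.04 with quantile normalization.

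Tcstv3 showed the largest of these differences. Its values were 207, 95.1, 152, 86.2, 209, 200 and 229 TPM in control embryos 1, 2, 3, 5, 6, 7 and 8, and 249, 12.3, 47.3, 222, 26.2, 164, 31.3 and 9.42 in K36M embryos 1 to 8. Thus 5 of the 8 K36M embryos lay below every control embryo and 1 lay above all of them. The difference was -1.61 (SE 0.60), with an unadjusted limma p of 0.0136, the only one of the 8 genes under 0.05, and an adjusted p of 0.566. Over the 24 alternative settings the difference stayed between -1.94 and -0.93, and the adjusted p between 0.365 and 0.810. Of all genes tested, 209 had an unadjusted p under 0.05 with K36M higher and 1129 with K36M lower, and Tcstv3 ranked 411.

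Tcstv1 in the same embryos differed by -0.80 (SE 0.71, limma adjusted p = 0.770). Its 7 control values were 199, 67.2, 383, 62.2, 151, 216 and 209 TPM, and its 8 K36M values were 531, 64.6, 132, 345, 2.73, 136, 57.1 and 89.4. Without K36M embryo 5 the difference was -0.14. Usp17la was higher in K36M by 1.25 (SE 0.81, limma adjusted p = 0.704). It had 83.6, 41.6, 89.5, 1.19, 68.2, 1.17 and 91.5 TPM in the control embryos and 247, 48.0, 145, 41.7, 56.01, 60.5, 16.9 and 55.8 in the K36M embryos. The mean of Usp17la in control, on the log scale, included 2 embryos near 1 TPM, and no K36M embryo was that low. The Usp17la difference was 0.65 when control embryo 5 alone, or control embryo 7 alone, was left out. Leaving out both together was not tried.

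For the other genes the differences were within the spread between embryos. Over all embryos they were -0.79 (SE 0.61) for Zfp352, 0.64 (SE 0.85) for Zscan4c, -0.29 (SE 0.62) for Zscan4d, 0.41 (SE 0.98) for Zscan4f and -0.54 (SE 0.96) for Usp17lc, and limma's adjusted p lay between 0.748 and 0.917. Single embryos moved them. Zfp352 was -0.27 without K36M embryo 7, and Zscan4c ran from 0.17 without control embryo 5 to 1.13 without control embryo 6. Zscan4d, Zscan4f and Usp17lc changed sign when single embryos were left out or control embryo 4 was added. With SEs of this size, a difference of 1 log2 unit in any of the 8 genes was not detectable. The number of genes above 0 TPM was 12115 to 17329 in control and 10894 to 14879 in K36M embryos, and its part in these differences was not tested.

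**Figure D3:**
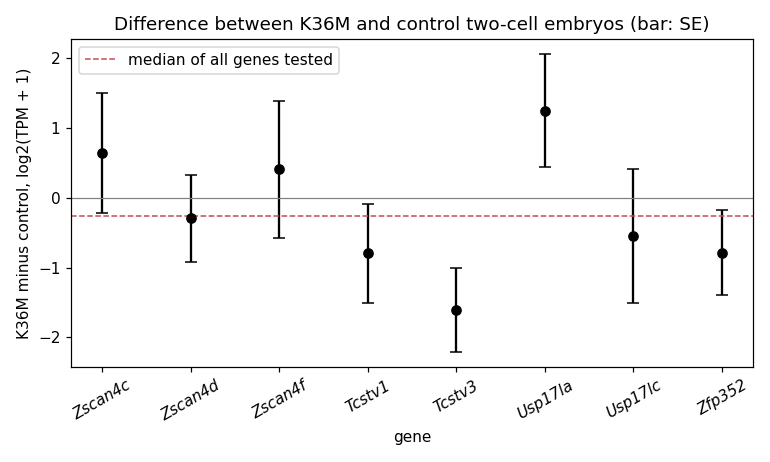
Difference between K36M oocyte-derived and control two-cell embryos in mean log2(TPM + 1) for each gene, with the limma SE, beside the median of all genes tested (dashed, -0.26). Tcstv3 at -1.61 lies furthest below 0 and Usp17la at 1.25 furthest above it, and none passed the adjusted threshold.

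Whether the stage difference itself differed between the genotypes was tested as an interaction. Limma called 0 of the 8 genes, and 0% of all genes in either direction, with an adjusted p of 1.00 for every one of the 8 and no unadjusted p under 0.05. For the 3 genes that reached a mean of 1 TPM in FGOs, the estimate was -1.12 (SE 1.09) for Tcstv3, -0.51 (SE 1.28) for Tcstv1 and 0.26 (SE 1.15) for Zscan4d. For the other 5, whose FGO values were at or near 0, no direction is read from the estimate, and that of Zfp352 changed sign with a smaller pseudocount.

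Spread between embryos was large. In control embryos the SD of log2(TPM + 1) was 2.50 for Usp17la, 2.25 for Zscan4c, 2.18 for Zscan4f, 1.37 for Zscan4d, 1.33 for Usp17lc, 0.96 for Zfp352, 0.94 for Tcstv1 and 0.58 for Tcstv3. Among genes of like mean level, the share with a smaller SD was 86.5% to 98.3% for 7 of the 8 genes, lowest for Zscan4f and highest for Usp17lc, and 52.5% for Tcstv3. The Tcstv3 values were close together, and 229 TPM, its highest in control, was 2.66 times its lowest. In K36M embryos the SD was 3.06 for Usp17lc, 2.16 for Tcstv1, 2.13 for Zscan4f, 1.81 for Tcstv3, 1.76 for Zfp352, 1.499 for Zscan4d, 1.44 for Zscan4c and 1.14 for Usp17la. In these embryos each of the 1031 genes of like mean level had a smaller SD than Usp17lc, and the share was 98.2% for Tcstv1, 96.7% for Zfp352, 91.5% for Tcstv3, 89.99% for Zscan4d, 76.1% for Zscan4f, 72.9% for Usp17la and 49.8% for Zscan4c. Several of these SDs rest on 1 embryo, by a check added after the data were seen. Without K36M embryo 8 the SD was 0.926 for Usp17lc and 0.571 for Zscan4d, and without K36M embryo 5 it was 1.198 for Tcstv1 and 0.851 for Zscan4c. It was 1.08 for Zfp352 without K36M embryo 7 and 0.849 for Usp17lc in control without control embryo 5. For the other genes no single embryo moved the SD by more than 1.5 times. The difference in spread between the genotypes was not tested.

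**Figure D4:**
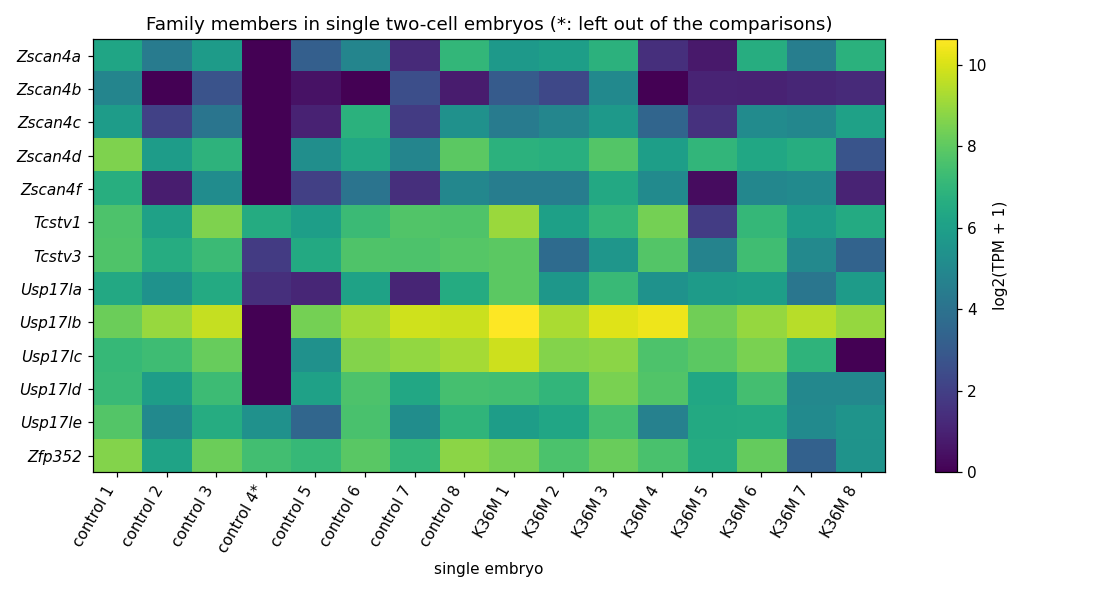
Level in log2(TPM + 1), as colour, of the 8 genes and the 5 other family copies in each single embryo, 8 control and 8 from K36M oocytes. Control embryo 4, left out of the comparisons, is listed at 0 for all 5 Zscan4 genes, and Usp17lc is at 0 in K36M embryo 8.

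By the mean of the 8 genes, the control embryos fell into a low and a high set, which did not hold for every gene. The mean log2(TPM + 1) of the 8 genes was 4.29 in embryo 5, 5.05 in embryo 2 and 5.08 in embryo 7, and it was 6.86, 6.87, 7.29 and 7.33 in embryos 6, 3, 8 and 1. Embryos 2 and 5 were among the 3 lowest for all 8 genes, and embryo 8 was among the 3 highest for all 8. Embryos 1, 3 and 6 of the high set were each among the 3 lowest for 1 gene. These were Usp17lc in embryo 1 (139 TPM), Tcstv3 in embryo 3 (152) and Tcstv1 in embryo 6 (151). Embryo 7 was mixed, among the 3 lowest for 5 genes but among the 3 highest for 2, with 216 TPM of Tcstv1 and 480 of Usp17lc beside 2.60 of Zscan4c. The numbers of genes above 0 TPM in embryos 5, 2 and 7 were 14786, 15445 and 12115, and in embryos 6, 3, 8 and 1 they were 12722, 16016, 14389 and 17329. Maternal markers had a mean log2(TPM + 1) of 6.25, 7.21 and 5.69 in the low set and 6.93 to 7.35 in the high set. The 5 blood markers summed to 0 TPM in all 3 embryos of the low set and to 15.4, 3.18, 0.486 and 11.2 in embryos 6, 3, 8 and 1. The 12 cumulus and granulosa markers had a mean log2(TPM + 1) of 1.33, 0.484 and 0.458 in embryos 5, 2 and 7 and of 1.798, 1.03, 1.66 and 1.74 in embryos 6, 3, 8 and 1. Their part in the split of the embryos was not tested.

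The K36M embryos were spread more evenly, with means of 3.88, 4.48, 5.23, 5.97, 6.42, 6.68, 7.09 and 7.39 in embryos 8, 5, 7, 2, 4, 6, 3 and 1. K36M embryo 1 had the highest value for 5 of the 8 genes, and embryos 5 and 8 had the lowest for 3 each. Embryo 8 also had the highest Zscan4c of its group, 66.3 TPM, beside 5.86 of Zscan4d and 0 of Usp17lc. The 12 cumulus and granulosa markers had a mean log2(TPM + 1) of 1.24 in embryo 8 and 1.502 in embryo 5, the K36M embryos with the lowest means of the 8 genes, and of 0.212 to 0.755 in the other 6. In control embryos these markers were mostly lower in the low set. The 5 blood markers summed to 0.515, 5.24, 7.74, 11.1, 0, 0, 59.5 and 0 TPM in K36M embryos 8, 5, 7, 2, 4, 6, 3 and 1, and maternal markers had a mean log2(TPM + 1) of 5.47 to 7.36. Their part in the order of the embryos was not tested. High Zscan4c and low Zscan4d in 1 embryo stand beside the limit that few Zscan4c stretches are its own.

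Over the 7 control embryos, Pearson's r of log2(TPM + 1) was above 0 for all 28 pairs of the 8 genes, with a median of 0.68 (0.20 to 0.94) and a median Spearman rho of 0.589. The median over all pairs of 12052 genes was 0.03, and 7.45% of those pairs reached 0.68. By their mean these embryos lay in a set of 3 and a set of 4, which were too small to test the relation within either, and how far the split sets the r was not tested. Over the 8 K36M embryos r was above 0 for 23 of 28 pairs, with a median of 0.38 (-0.36 to 0.93) and a median rho of 0.405, and 20.3% of the pairs of 12071 genes reached that median. Pairs share their libraries and, within a family, reads, and the difference in r between the genotypes was not tested. Of the 56 pairs of both genotypes together, 0 passed the Benjamini-Hochberg threshold by an exact pairing permutation test, and 8 control and 2 K36M pairs had an unadjusted p under 0.05.

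**Figure D5:**
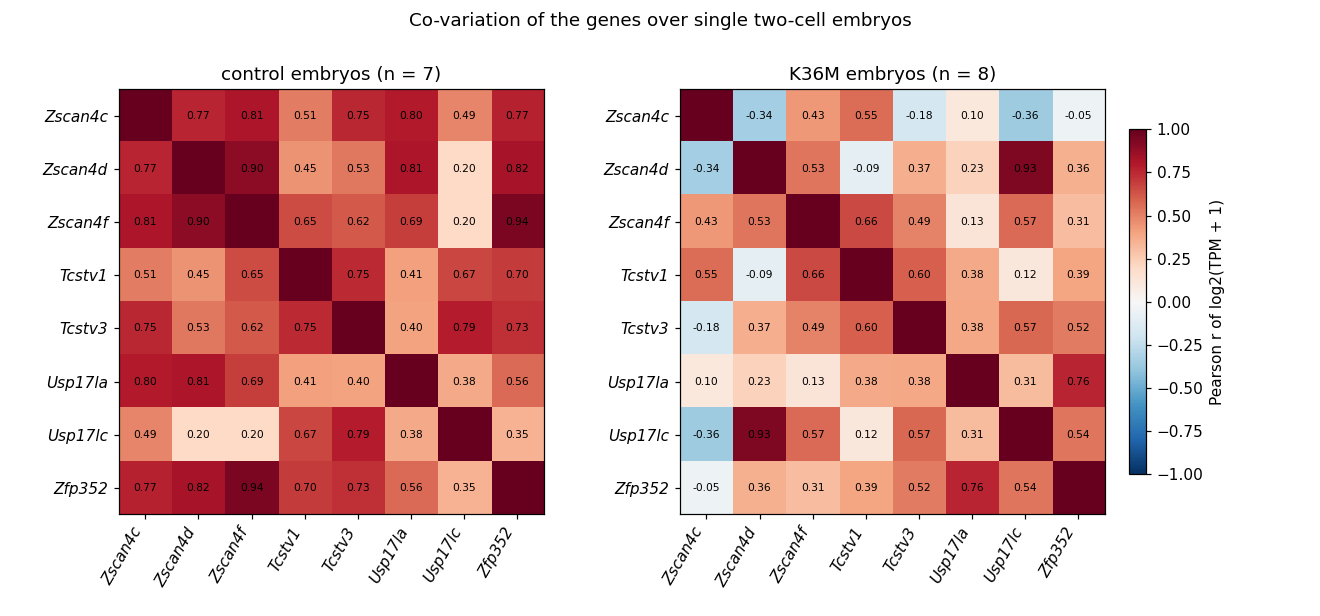
Pearson's r of log2(TPM + 1) for each pair of the 8 genes, over 7 control (left) and 8 K36M oocyte-derived (right) two-cell embryos. All 28 control pairs lie above 0, and 23 of the 28 K36M pairs do.

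Pairs within a family were not all closer than pairs between families, and several of their r values rest on 1 embryo, by a check of leaving out each embryo that was added after the data were seen. In control embryos Zscan4d and Zscan4f had r = 0.90 and rho = 0.86 (exact permutation p = 0.00813, adjusted p = 0.228, 2-sided, n = 7), and r = 0.81 without the 2 embryos farthest from the median of Zscan4d. In K36M embryos the same pair had r = 0.53 and rho = 0.071, and r was 0.034 without embryo 8, 0.95 without embryo 5 and -0.63 without the 2 embryos farthest from the median. Zscan4c and Zscan4d had r = 0.77 and rho = 0.75 in control. In K36M embryos they had r = -0.34 and rho = -0.26, which turned to 0.20 and 0.11 without embryo 8, so no direction is read from this pair. Tcstv1 and Tcstv3 had r = 0.75 and rho = 0.39 in control (exact permutation p = 0.0498, adjusted p = 0.258, n = 7), which turned to r = -0.85 without the 2 embryos farthest from the median of Tcstv1, so the relation rests on those. In K36M they had r = 0.60 and rho = 0.79, with r from 0.47 to 0.84 without single embryos. Usp17la and Usp17lc had r = 0.38 and rho = 0.29 in control, where r was -0.30 without embryo 5 and 0.85 without embryo 7. In K36M they had r = 0.31 and rho = 0.74, and r was 0.93 without embryo 8 and 0.12 without embryo 1. The median r was 0.81 over the 3 Zscan4 pairs and 0.65 over the 23 pairs between families in control, and the median rho was 0.75 and 0.571. In K36M the order of the medians depended on the measure, with r of 0.43 and 0.38 but rho of 0.071 and 0.429.

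Outside the 8 genes, the genes most like their mean over the embryos were taken as those with the largest smaller r of the 2 genotypes, among 12155 genes. They were Prdm1 (r = 0.89), a transcriptional repressor of the germ line, Pcdh8 (0.88), a protocadherin, Neb (0.86), a thin filament protein of muscle, Epha2 (0.86), an ephrin receptor, and Atp2a1 (0.86), a calcium pump. Over 7 and 8 embryos such values are the top of a long list, and no test was made. Their levels were below those of most of the 8 genes, with means in control embryos of 12.4 TPM for Prdm1, 59.7 for Pcdh8, 11.4 for Neb, 23.5 for Epha2 and 8.84 for Atp2a1. Prdm1 was present in FGOs at 30.1 to 41.3 TPM, above its embryo means, while Pcdh8 was at most 0.17 TPM there. By the same measure, the closest of the other 7 genes ranked between 31 (Zscan4f for Tcstv1) and 513 (Zscan4f for Zscan4d) of 12154 genes. The gene closest to Zfp352 was Usp17ld, with 0.88 as the smaller r of the 2 genotypes. For none of the other 7 was the closest gene a Zscan4, Tcstv or Usp17l copy.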

How the data were processed

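RNA-seq libraries of FGOs and single two-cell embryos were grouped by their labels. The authors trimmed reads with Trim Galore, mapped them with Hisat2 to mm10, removed ribosomal RNA reads with BEDTools, counted genes with featureCounts and deposited TPM, which sum to 1000000 in each library. The annotation, gene lengths, strand setting and treatment of multi-mapped reads are not given in the sources used here, which can move values between near-identical copies. The study tested counts. TPM are not counts and keep no depth, so the reads behind a value are unknown, no counting interval is given, and limma 3.58.1 (lmFit, eBayes with trend, R 4.3.3) was run on log2(TPM + 1). A gene was tested where its mean over the fitted libraries reached 1 TPM, with Benjamini-Hochberg adjustment over all of them and a threshold of 0.05. FGOs and embryos were fitted apart, and stage and interaction in 1 fit of 21 of the 22 libraries. On this scale the fold of a gene with low TPM comes out too small.

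Likeness of embryos was measured with Pearson's r and Spearman's rho, with exact pairing permutation tests (Python 3.11.15, scipy 1.17.1). Exon stretches of 53 bases were searched on both strands of GRCm38.p6 with RefSeq exons, and promoters came from RefSeq too. The fits were first tested on simulated libraries. There the stage fit called few genes. In its control comparison 1.12% of unchanged genes had an unadjusted limma p under 0.05, and 15% of changes of 2 log2 units were called. Alternatives were quantile normalization, scaling by median of ratios, a pseudocount of 0.1, a minimum mean of 5 TPM or none, array weights, no trend, a block for the replicate number, control embryo 4 added, and each library left out. The text names the 8 genes, the other family copies in the table, H3f3b, the 5 genes most like the mean of the 8 (mean TPM of at least 5 over the embryos) and up to 4 genes per list with the largest embryo TPM. Gapdh and Dux were named outside this rule, after their values were seen. Of the lists, 18 of 24 two-cell genes and 9 of 10 activator symbols were in the table, which held Dux but not the symbol Duxf3. The genes and lists were chosen with earlier results of these data known.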

Additional observations from a re-analysis of the deposited data

Results flagged for a closer look

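In the 2 embryo groups the 8 genes, their mean, the number of genes above 0 and the share of the 10 highest genes gave 22 sets of values, each examined for a single embryo far from the rest, of which about 1 in 20, or 1.1, would stand apart by chance, and 3 did. All 3 were K36M oocyte-derived embryos that were far below the others. Zscan4d was 2.78 on the log2(TPM + 1) scale in K36M embryo 8, where the next lowest embryo had 5.95. Usp17lc was 0 in the same embryo, where the next lowest had 6.92. Tcstv1 was 1.90 in K36M embryo 5, where the next lowest had 5.86. K36M embryo 8 had 11178 genes above 0 TPM, where the other K36M embryos had 10894 to 14879. Gapdh, a gene of low level here (median of 4.61 TPM in K36M embryos), was also listed at 0 in K36M embryo 8. K36M embryo 5 had 12554 genes above 0 TPM. The part of this in the values was not tested.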

How the results depend on the processing

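The number of the 8 genes called stayed at 0 in each genotype comparison and in the interaction, and between 5 and 8 in each stage comparison, over all 128 alternative values. Of 953 alternative values of the log2 differences, 902 kept direction and side of the threshold, 29 lost the call, 5 gained it and 17 changed sign, none of the latter past the threshold.

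Between two-cell genotypes, the sign turned for Zscan4d (0.53) and Usp17lc (0.43) with control embryo 4 added, and for Usp17lc with array weights (0.089). Without single libraries the difference was -0.57 to 0.20 for Zscan4d (above 0 without control embryo 1 or K36M embryo 8), -0.95 to 0.50 for Usp17lc (above 0 without K36M embryo 8) and -0.051 to 0.93 for Zscan4f (below 0 without control embryo 2). In the interaction it was -0.020 to 0.76 for Zscan4d, -0.051 to 0.93 for Zscan4f, -0.87 to 0.15 for Tcstv1 and -0.21 to 1.24 for Usp17lc, and Zfp352 turned to 0.14 with a pseudocount of 0.1. No direction is read from the interaction values of Zscan4f, Usp17lc and Zfp352, whose FGO levels were at or near 0. The cause was not tested.

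The median r of the control embryos was 0.589 as Spearman's rho and 0.573 to 0.755 without single embryos, and that of the K36M embryos 0.308 to 0.472.

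Over all genes, 1 was called between FGO genotypes, with 0 to 300 when libraries were left out (300 without K36M library 1) and 0 with a pseudocount of 0.1, all genes or no trend. Between two-cell genotypes 0 became 5 with no trend, 1 with array weights and 1 without K36M embryo 8. The control stage count of 4615 became 9730 with array weights and 2844 to 2877 without 1 control FGO library, that of K36M, 5094, became 8527 with array weights, and the interaction's 0 became 13 with all genes, 1 with no trend, 3 with array weights and at most 3 without 1 library.

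Groups share replicate numbers. The deviations of libraries of the same number had correlations of 0.015 to 0.10 in FGOs and -0.10 to 0.097 in embryos. Libraries of different numbers were not compared in this way, so pairing is not excluded, and the main fits used none. With the replicate block 0 of the 8 genes were called between genotypes in FGOs, embryos or the interaction, 8 in the control and 7 in the K36M stage comparison, and 0, 0, 3887, 4199 and 0 of all genes.

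TPM keep no depth, and single embryos vary, so small differences were not detectable. Most larger ones were not detectable between the two-cell genotypes either. In simulated libraries of that comparison, 0% of changes of 1 log2 unit and 17% of changes of 2 log2 units were called.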
